A study of Mus musculus with 6 samples.

Results

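Melanoma cells move between a differentiated, pigment-making state and a dedifferentiated state, and 10 genes that mark the ends of that range were measured in Tyr-H and Tyr-L cells. The 5 lineage factors were *Mitf*, *Sox10*, *Pax3*, *Tfap2a* and *Lef1*, and the 5 markers of the dedifferentiated state were *Sox9*, *Zeb1*, *Zeb2*, *Axl* and *Ngfr*. They were chosen by gene symbol from the 20788 genes that had a value in at least 1 library, and no threshold on expression was used. Tyr-H and Tyr-L cells are sublines of B16, a melanoma line from C57BL/6 mice, which the labels give as having high and low tyrosinase activity. Both were grown in low-glucose DMEM with serum and antibiotics, with no treatment, and mRNA of 3 libraries of each was sequenced. Nothing in the labels ties the 3 libraries of a group to separate cultures or subclones, so the SD and p-values below measure the spread between libraries, which may be technical. Values are FPKM, fragments per kilobase of transcript and per 1000000 mapped fragments of the library, scaled by the authors. A gene with no entry in a library was taken as 0.

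MITF is the basic helix-loop-helix leucine zipper factor that activates the genes of pigment synthesis and melanosome formation. In melanocytes its gene is switched on by SOX10, PAX3, LEF1 with β-catenin, and CREB below the melanocortin receptor. Melanomas low in MITF are often high in the receptor tyrosine kinase AXL or in NGFR, the low-affinity neurotrophin receptor of neural crest cells, and the dedifferentiated state is also known for SOX9 and for a change from ZEB2 to ZEB1, a pair of zinc finger repressors of epithelial genes.

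The promoters of *Mitf* and *Tyr* are shown because the lineage factors act on the first and MITF acts on the second. The *Mitf* sequence is the 250 bases before the most downstream of its 3 starts in the RefSeq promoter table (GRCm38.p6, plus strand, chr6:97991533-97991782). The *Tyr* sequence is the 250 bases before its start (minus strand, chr7:87493513-87493762). Capitals mark letters found on either strand. In *Mitf* they are the TCF/LEF letters CTTTGA, 205 bases before the start, and the cyclic AMP response element TGACGTCA, 153 bases before it. In *Tyr* they are the SOX letters ATTGT, read as ACAAT on the other strand and 233 bases before the start. Also marked is ATTANTAAT, which holds the homeodomain core ATTA on each strand, 113 bases before the start. Nearest the start is the M-box core CATGTG that MITF binds, 21 bases before it. None of the marked letters overlap each other.
Mitf: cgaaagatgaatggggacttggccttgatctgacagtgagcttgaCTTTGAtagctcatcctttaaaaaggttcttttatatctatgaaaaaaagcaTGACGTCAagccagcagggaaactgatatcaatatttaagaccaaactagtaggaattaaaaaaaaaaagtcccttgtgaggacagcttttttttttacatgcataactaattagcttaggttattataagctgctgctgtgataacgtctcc
Tyr: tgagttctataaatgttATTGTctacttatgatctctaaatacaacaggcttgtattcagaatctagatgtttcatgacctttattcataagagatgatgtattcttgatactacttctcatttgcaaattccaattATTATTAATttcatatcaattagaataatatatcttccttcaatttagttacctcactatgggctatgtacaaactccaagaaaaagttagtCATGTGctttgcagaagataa

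Among 32851 promoter windows of the same length, CTTTGA was found in 13.8%, TGACGTCA in 1.55%, ACAAT in 27.7%, ATTANTAAT in 0.47% and CATGTG in 12.2%, both strands counted. The table held promoters of 6 of the 10 genes (*Mitf*, *Tfap2a*, *Lef1*, *Zeb2*, *Axl* and *Ngfr*). Such matches are descriptions of the sequence and not bound sites. The FPKM values are of whole genes, so expression from one *Mitf* start cannot be told apart from expression from another.

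A few facts of the libraries bear on all values. The Tyr-L libraries listed 17211 to 17413 genes and the Tyr-H libraries 16813 to 16949, at an estimated depth of 18600000 to 21100000 fragments, and genes differed between 2 libraries by a median of 0.095 to 0.114 (log2, sign ignored) within groups and 0.315 to 0.371 between them. The 14336 genes whose mean reached 0.1 FPKM were tested with limma on log2(FPKM + 0.1), and 8.75% were called, that is, they passed an adjusted p of 0.05 and a log2 fold change of 1 in either direction. Over all tested genes the log2 fold changes had a median of -0.15, which median ratio scaling moved to -0.01. The 425 higher and 829 lower calls (33.9% higher) became 544 and 580 (48.4% higher) after median ratio scaling and 611 and 494 (55.3% higher) after quantile normalization. They became 457 and 1287 (26.2% higher) after rescaling to a total of 1000000 FPKM. Rescaling to that total raised the values of every library before the fixed filter and pseudocount, so 15719 genes were tested. Its counts therefore do not show the scaling alone. Because the calls depend on scaling, fold changes after median ratio scaling are given beside those of the deposited values for each of the 10 genes. They are also given for other named genes whose call, sign or pass at the adjusted p depends on that scaling. Of the markers of other cell types, *Ptprc* and *Adgre1* of leukocytes, *Csf1r* of macrophages and *Cdh5* of endothelium had no value in any library, and the 9 that did, *Mbp* aside, summed to 0.821 to 0.973 FPKM (Tyr-L) and 1.38 to 1.45 FPKM (Tyr-H) per library. *Mbp*, a myelin gene, alone had means of 144.3 and 250.1 FPKM, respectively. Their part in the results was not tested. In bulk RNA, fewer cells of a state and less RNA per cell cannot be told apart.

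*Mitf* was lower and *Axl* and *Ngfr* were higher in Tyr-H cells, and these 3 were the only ones of the 9 tested genes that were called. The 2 called higher compare with 2.96% of all tested genes called higher, and the 1 called lower with 5.78%. At the adjusted p alone, 3 of the 9 were higher (*Pax3*, *Axl* and *Ngfr*) and 5 were lower (*Mitf*, *Sox10*, *Tfap2a*, *Sox9* and *Zeb2*), where 17.9% and 39.9% of all tested genes passed (57.8% in either direction). Of these 8, *Sox9* no longer passed under 2 of the 3 other scalings and *Pax3* under 1, as given with each gene. *Zeb1* did not pass, and *Lef1* was below the filter on low values. The medians of the 4 lineage factors tested and of the 5 dedifferentiation markers were -0.71 and 0.31 on the log2 scale, and -0.56 and 0.41 after median ratio scaling. *Zeb2* is counted among the dedifferentiation markers as listed, although it is known from differentiated melanocytes, so its direction has to be read apart from the median of that class. In all 10 genes the 3 Tyr-H libraries did not overlap the 3 Tyr-L libraries (6 lower, 4 higher), as in 64% of all tested genes (43.8% lower, 20.2% higher), and the exact permutation test, two-sided, gave p = 0.1 for each, the smallest that 3 against 3 allows.

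**Figure D1:**
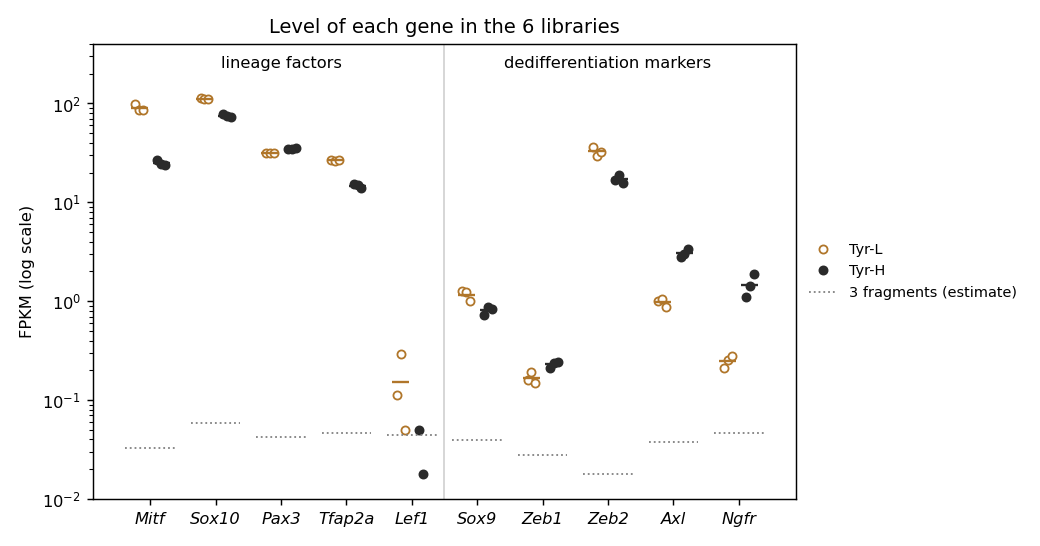
Expression of the 10 genes in each library, in FPKM on a log axis, with points for the libraries of Tyr-L and Tyr-H cells short lines for group means and dotted lines for the estimated value of 3 fragments. *Mitf* fell from a mean of 90.5 to 25.0 FPKM, while the means of *Axl* and *Ngfr* rose from 0.975 to 3.05 and from 0.247 to 1.47 FPKM; *Lef1* has no entry in Tyr-H library 3, so that point and its group mean are not drawn.

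*Mitf* (ENSMUSG00000035158) codes for protein and is read from the plus strand (GENCODE M21, GRCm38, chr6:97807052-98021349). Tyr-L values were 98.2, 86.7 and 86.6 FPKM, and Tyr-H values 26.8, 24.7 and 23.7 FPKM. All Tyr-H libraries were thus far below the lowest Tyr-L library. The means were 90.5 ± 6.64 and 25.0 ± 1.56 FPKM (SD, n = 3 each), so that Tyr-H cells were 3.61-fold lower. The log2 fold change was -1.85 (SE, standard error, 0.06, 95% interval -1.99 to -1.71, limma adjusted p = 1.04e-07) and -1.70 after median ratio scaling. Among all tested genes, 92 had a lower log2 fold change. Of the 6227 genes whose mean reached 10 FPKM, 96 were called lower (1.54%), and *Mitf* was 1 of them.

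*Sox10*, on the minus strand (chr15:79154908-79165240), encodes the neural crest factor that activates *Mitf* and stays on through the melanocyte lineage. It was the most abundant of the 10 genes in both groups, at 114.4, 112.3 and 109.9 FPKM (Tyr-L) and 78.1, 74.8 and 73.6 FPKM (Tyr-H). The groups were clear of each other, at means of 112.2 ± 2.27 and 75.5 ± 2.3 FPKM (SD, n = 3). *Sox10* was lower in Tyr-H cells (log2 fold change -0.57, SE 0.03, limma adjusted p = 1.85e-06; -0.42 after median ratio scaling), by less than a call needs.

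*Pax3* (minus strand, chr1:78101267-78197134), a paired-box factor of melanoblasts, was the one lineage factor tested whose log2 fold change was above 0. Values were 31.7, 31.6 and 31.7 FPKM (Tyr-L) against 34.3, 34.8 and 35.3 FPKM (Tyr-H). The difference was small against the level but larger than the narrow spread within groups, with a log2 fold change of 0.13 (95% interval 0.06 to 0.21, limma adjusted p = 0.00811). It was 0.29 after median ratio scaling, and 0.04 after rescaling to a total of 1000000 FPKM, where it no longer passed (limma adjusted p = 0.422).

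*Tfap2a* (minus strand, chr13:40715302-40738376) encodes AP-2α, which acts with MITF on melanocyte genes. Its values were 26.7, 26.4 and 27.1 FPKM (Tyr-L) against 15.4, 14.9 and 14.1 FPKM (Tyr-H). Tyr-H cells were lower without overlap (log2 fold change -0.85, SE 0.05, limma adjusted p = 9.39e-07; -0.70 after median ratio scaling). The antisense gene Gm26688 overlaps exons of *Tfap2a* and had 0.444 to 1.76 FPKM, and without a stated strand setting reads of the 2 cannot be told apart.

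*Lef1* (plus strand, chr3:131110471-131224356), the lymphoid enhancer factor that takes β-catenin to the *Mitf* promoter, was close to the detection limit. Tyr-L values were 0.113, 0.291 and 0.0497 FPKM, Tyr-H libraries 1 and 2 had 0.0496 and 0.0179 FPKM, and Tyr-H library 3 had no entry. The value that 3 fragments would give *Lef1* was 0.0389 to 0.0442 FPKM, so the Tyr-L values stood above it, while 1 Tyr-H value was just above it and the others under it, and the lowest Tyr-L and the highest Tyr-H libraries were nearly equal. It was not tested, since its mean over the 6 libraries was 0.0868 FPKM. With no filter on low values its log2 fold change was -0.94 (95% interval -1.78 to -0.10, limma adjusted p = 0.0785), which did not pass. The gene Gm43352 overlaps it, at no more than 0.0534 FPKM.

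**Figure D2:**
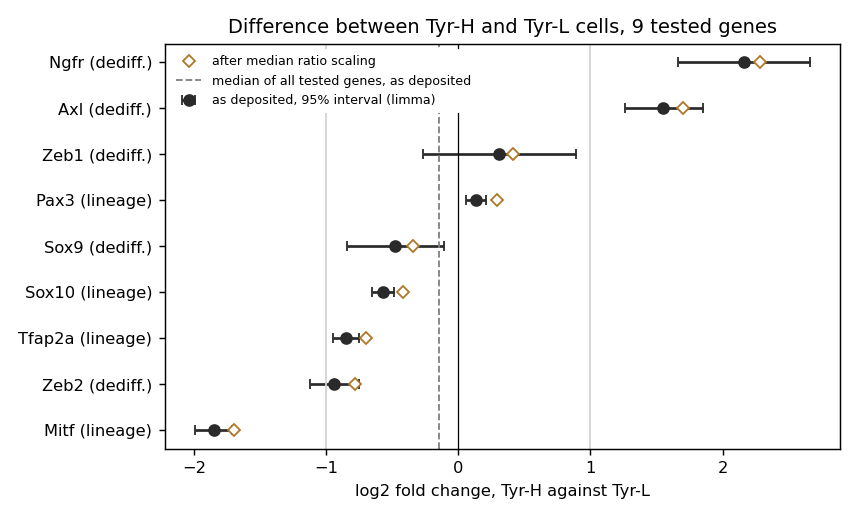
Log2 fold changes of the 9 tested genes, Tyr-H against Tyr-L, with points for the limma estimate on log2(FPKM + 0.1), bars for its 95% interval and open marks for the estimate after median ratio scaling. The estimate of *Mitf* lies at -1.85 and those of *Axl* and *Ngfr* at 1.55 and 2.16, the only estimates beyond the grey lines at 1 and -1; the dashed line is the median of all tested genes, -0.15.

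*Axl* (minus strand, chr7:25757273-25788705), the receptor of the ligand GAS6, had Tyr-L values of 1.01, 1.05 and 0.868 FPKM and Tyr-H values of 2.81, 2.97 and 3.38 FPKM. Each Tyr-H library was well above the highest Tyr-L library. The means of 0.975 ± 0.0948 and 3.05 ± 0.293 FPKM (SD, n = 3) differed 3.13-fold. Its log2 fold change was 1.55 (SE 0.13, 95% interval 1.26 to 1.85, limma adjusted p = 1.1e-05) and 1.70 after median ratio scaling, and 178 tested genes had a higher one.

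*Ngfr* (minus strand, chr11:95568818-95587735) had 0.21, 0.254 and 0.279 FPKM (Tyr-L) and 1.11, 1.44 and 1.87 FPKM (Tyr-H). It had the largest log2 fold change of the 9 tested genes, from means of 0.247 ± 0.0351 to 1.47 ± 0.377 FPKM (SD, n = 3), or 5.96-fold. The log2 fold change was 2.16 (SE 0.22, 95% interval 1.66 to 2.66, limma adjusted p = 3.59e-05), 2.28 after median ratio scaling, and 70 tested genes had a higher one. Its level was low, and with a pseudocount of 1 FPKM the log2 fold change was 0.98, which is under the threshold for a call. The value that 3 fragments would give *Ngfr*, 0.0413 to 0.0469 FPKM, was below every library.

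*Sox9* (plus strand, chr11:112782224-112787760), a SOX factor of neural crest and cartilage that is often opposed to SOX10 in melanoma, was low in both groups. Values were 1.26, 1.24 and 1.0 FPKM (Tyr-L) and 0.723, 0.865 and 0.843 FPKM (Tyr-H). Unlike *Axl* and *Ngfr*, it was lower in Tyr-H cells, with a log2 fold change of -0.48 (95% interval -0.84 to -0.11, limma adjusted p = 0.031). It no longer passed after median ratio scaling (-0.34, adjusted p = 0.104), after quantile normalization (-0.30, adjusted p = 0.139) or with no filter on low values (adjusted p = 0.0704). Nor did it pass without Tyr-H library 1 (adjusted p = 0.0892) or 3 (0.0514), or without Tyr-L library 1 (0.0968) or 2 (0.0906), with limma in each case.

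*Zeb2* (minus strand, chr2:44983632-45117395), the ZEB factor of differentiated melanocytes, had 36.2, 29.6 and 32.5 FPKM (Tyr-L) and 16.8, 18.7 and 15.8 FPKM (Tyr-H). It was lower in Tyr-H cells, just short of a call, at means of 32.8 ± 3.31 and 17.1 ± 1.5 FPKM (SD, n = 3). The log2 fold change was -0.94 (SE 0.08, limma adjusted p = 1.36e-05) and -0.78 after median ratio scaling. It was -1.0 without Tyr-H library 2 and -1.01 without Tyr-L library 2, each of which made it a call. The antisense gene *Zeb2os* overlaps its exons at 0.747 to 2.15 FPKM.

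*Zeb1* (plus strand, chr18:5591860-5775467), the ZEB factor of the dedifferentiated state, had 0.158, 0.192 and 0.149 FPKM (Tyr-L) and 0.212, 0.236 and 0.24 FPKM (Tyr-H). All 6 values were low but above the 0.0245 to 0.0279 FPKM that 3 fragments would give. The log2 fold change was 0.31 (95% interval -0.27 to 0.89, limma adjusted p = 0.329), so it did not pass, and it was 0.41 after median ratio scaling. With no variance trend in limma the same log2 fold change passed (adjusted p = 0.0198). The locus in the deposited tables starts 100.4 kb before the annotated gene.

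Ratios between members within a library depend on scaling between libraries only through the pseudocount for methods that multiply a library by 1 factor, and more under quantile normalization. They are given here as log2 ratios of FPKM + 0.1. The log2 ratio of *Mitf* to *Axl* was 6.47, 6.24 and 6.49 in Tyr-L and 3.21, 3.01 and 2.77 in Tyr-H libraries. Without the pseudocount, *Mitf* had 82.7 to 99.8 times the FPKM of *Axl* in Tyr-L and 7.01 to 9.52 times in Tyr-H cells. That of *Mitf* to *Ngfr* was 8.31, 7.94 and 7.84 against 4.47, 4.01 and 3.6. The mean ratio was lower in Tyr-H cells by 3.4 and by 4.01 on the log2 scale, respectively. The log2 ratio of *Sox10* to *Sox9* was 6.39, 6.39 and 6.64 in Tyr-L and 6.57, 6.28 and 6.29 in Tyr-H libraries, and here the groups overlapped, at means of 6.47 ± 0.14 and 6.38 ± 0.17 (SD, n = 3). The log2 ratio of *Zeb2* to *Zeb1* was 7.14, 6.67 and 7.03 in Tyr-L and 5.76, 5.81 and 5.54 in Tyr-H libraries, a mean difference of -1.25, and without the pseudocount *Zeb2* had 65.6 times the FPKM of *Zeb1* or more in every library. These ratios are descriptions and were not tested.

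**Figure D3:**
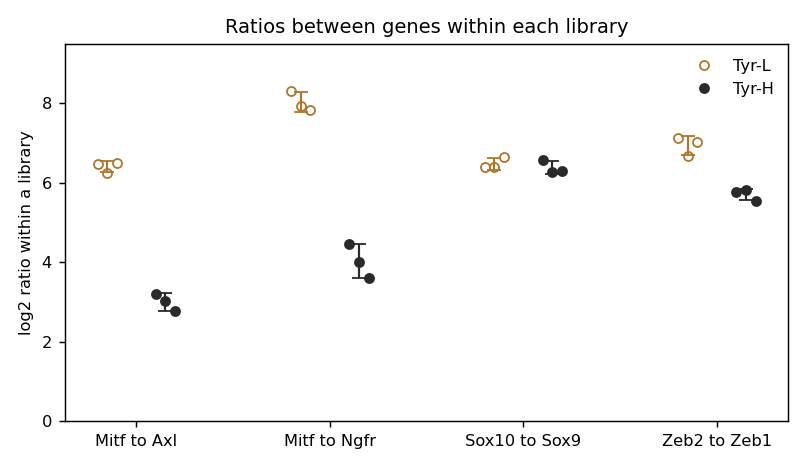
Log2 ratios of FPKM + 0.1 between pairs of the 10 genes within each library, with points for the 3 libraries of each group and bars for the mean ± SD. The ratio of *Mitf* to *Axl* lies between 6.24 and 6.49 in Tyr-L and between 2.77 and 3.21 in Tyr-H libraries, while the ratio of *Sox10* to *Sox9* overlaps between groups.

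By level, the order in Tyr-L cells was *Sox10*, *Mitf*, *Zeb2*, *Pax3*, *Tfap2a*, *Sox9*, *Axl*, *Ngfr*, *Zeb1* and *Lef1*, in which *Zeb2* and *Pax3*, *Sox9* and *Axl*, and *Zeb1* and *Lef1* overlapped between libraries. In Tyr-H cells *Pax3* stood above *Mitf*, and *Axl* and *Ngfr* stood above *Sox9*, with no overlap between neighbours in the order. Over the 6 libraries and 77 genes of the lists used here, the log2 expression of *Mitf* was most like that of *Cd44* (Pearson's r = 0.99996) and *Oca2* (r = 0.9995), and that of *Ngfr* most like that of *Pax3* (r = 0.9965) and *Fn1* (r = 0.9923). The 6 points fall into 2 groups, so r follows the difference between groups.

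The relatives of these genes did not move as one. Of 14 paralogs, 7 were tested, of which 1 was called lower and none higher. At the adjusted p alone 2 were higher, 4 were lower and 1 did not pass. Over all tested genes 8.75% were called, and 17.9% were higher and 39.9% lower at the adjusted p. *Tfe3* and *Tfeb*, the MITF relatives that drive lysosomal genes, were higher in Tyr-H cells, from 14.0 ± 0.83 to 18.6 ± 0.176 FPKM (log2 fold change 0.41, limma adjusted p = 0.00014) and from 5.81 ± 0.458 to 7.51 ± 0.337 FPKM (0.37, adjusted p = 0.00268), both in a direction opposite to *Mitf*. Of the LEF1 relatives, *Tcf7l1* was called lower, at 9.93 ± 0.674 and 4.47 ± 0.447 FPKM (-1.13, adjusted p = 6.96e-06; -0.98 after median ratio scaling and -1.0 with a pseudocount of 1 FPKM, just short of a call in both). *Tcf7* (-0.67) and *Tcf7l2* (-0.50) also were lower at the adjusted p. *Tcf7l2* did not pass after median ratio scaling (-0.35, limma adjusted p = 0.141) or quantile normalization (-0.33), with no variance trend or no filter on low values, or with any library but Tyr-H 1 left out (limma adjusted p = 0.0725 to 0.136). All 3 had higher levels than *Lef1* in every library. *Tyro3*, a receptor kinase related to AXL, was lower, from 8.44 ± 0.623 to 5.66 ± 0.217 FPKM (-0.56), while *Mertk*, the other relative, had 0.523 ± 0.0101 and 0.487 ± 0.117 FPKM and did not pass (-0.10, adjusted p = 0.696), with a sign that depends on the scaling (0.02 after median ratio scaling).

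Genes that act with the 10, as ligands, co-receptors, upstream receptors, or transcription factors and their co-factors and inhibitors, formed a list of 22, of which 11 were tested, 1 was called higher and 4 lower. At the adjusted p alone 1 was higher and 7 were lower, where over all tested genes 2.96% were called higher and 5.78% lower, and 17.9% and 39.9% passed the adjusted p in each direction. Among the lower ones *Creb1*, which encodes CREB (-0.25), did not pass after median ratio scaling (-0.10, limma adjusted p = 0.137) or quantile normalization (-0.10). *Id1* (-0.75) did not pass (limma adjusted p = 0.0505), but it did under some alternatives, such as the replicate number as a block. Both are named after their values were seen. Their median log2 fold change was -0.60 (-0.44 after median ratio scaling). *Mc1r* and *Kit*, receptors upstream of *Mitf*, were among the lower ones, and *Ednrb*, another such receptor, had no value in any library. *Mc1r*, the melanocortin receptor, had 73.3, 73.5 and 75.3 FPKM (Tyr-L) and 27.2, 26.8 and 24.3 FPKM (Tyr-H), and was thus lower without overlap (log2 fold change -1.50, limma adjusted p = 8.17e-08). It overlaps the gene Gm38092, which had up to 4.99 FPKM. *Kit*, the receptor of stem cell factor, had means of 1.16 ± 0.0238 and 0.486 ± 0.132 FPKM (-1.13; -0.99 after median ratio scaling, -0.93 without Tyr-H library 3 and -0.54 with a pseudocount of 1 FPKM, none of them a call). *Id3*, an inhibitor of basic helix-loop-helix factors, had 43.2, 19.8 and 23.3 FPKM (Tyr-L) and 3.71, 3.93 and 3.83 FPKM (Tyr-H), with Tyr-L library 1 well above the other two (-2.79, limma adjusted p = 1e-05). For the NGFR receptor, *Bdnf*, a neurotrophin ligand, was called higher, from 0.529 ± 0.0294 to 1.19 ± 0.284 FPKM (1.02, adjusted p = 0.00155). It was no longer called without Tyr-H library 3 (0.85), without Tyr-L library 3 (0.99), after rescaling to a total of 1000000 FPKM, or with a pseudocount of 1 FPKM (0.51). *Sort1*, which encodes its co-receptor sortilin, was called lower, from 51.4 ± 0.417 to 24.0 ± 1.0 FPKM (-1.10; -0.95 after median ratio scaling, no longer a call). The receptor and its co-receptor therefore differed in opposite directions.

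The targets of MITF were mostly lower, and *Tyr* was the one call in the other direction. Of 23 known targets, 22 were tested, 1 was called higher and 7 lower, against 8.75% of all tested genes called in either direction. At the adjusted p alone 2 were higher, 17 lower and 3 did not pass, against 17.9% higher and 39.9% lower over all tested genes. Among the lower ones *Tyrp1*, *Mlana* (-0.24), *Rab38* (-0.19) and *Rragd* (-0.26), named after their values were seen, no longer passed after median ratio scaling. That scaling gave *Mlana* -0.09, *Rab38* -0.04 and *Rragd* -0.11. The other one that was higher, *Gpnmb*, a melanosomal glycoprotein, had 0.12 (limma adjusted p = 0.0205). It did not pass after rescaling to a total of 1000000 FPKM (0.02) or quantile normalization, which turned its sign (-0.02). Nor did it pass without Tyr-H library 1 or any 1 of the Tyr-L libraries. The same held with no filter on low values, no variance trend or the replicate number as a block (limma adjusted p = 0.057, 0.0603 and 0.0817). The median log2 fold change was -0.68, against -0.15 over all tested genes, and -0.53 after median ratio scaling. *Tyr*, which encodes tyrosinase, had 10.7, 9.52 and 9.8 FPKM (Tyr-L) and 23.8, 20.6 and 19.7 FPKM (Tyr-H), so that it was higher where *Mitf* was lower (log2 fold change 1.08, limma adjusted p = 3.98e-06), and rescaling to a total of 1000000 FPKM gave 0.99, below the threshold for a call. Tyrosinase activity named the groups, so this direction is a check of the labels. *Oca2*, a melanosomal transporter, had 1.68, 1.44 and 1.55 FPKM against 0.332, 0.287 and 0.271 FPKM (-2.06, adjusted p = 1e-05; -0.98 with a pseudocount of 1 FPKM). *Cited1*, a transcriptional co-activator, had means of 13.1 ± 0.159 and 4.35 ± 0.813 FPKM (-1.59), and *Trpm1*, a cation channel, of 3.87 ± 0.675 and 1.41 ± 0.215 FPKM (-1.39). *Cdk2*, a kinase of the cell cycle, had 100.4 ± 2.41 and 34.0 ± 2.68 FPKM (-1.56). It overlaps *Pmel*, a target on the opposite strand that was far more abundant and also lower, at 1370.4 ± 14.5 and 827.3 ± 63.5 FPKM (-0.73), and without a stated strand setting reads of the pair cannot be told apart, so the value of *Cdk2* is uncertain. The other calls, *Mlph*, *Rab27a* and *Met*, are named after their values were seen, and *Met* (-1.04) was no longer called after median ratio scaling (-0.89).

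The M-box core CATGTG was in the promoters of 8 of the 18 targets that were in the promoter table, against 13.8% of all genes there, and the related letters CACGTG in 5 of the 18, against 6.9%. Since the list was drawn from known targets, this describes the list. For 7 of the 8, 26 bases around the core are shown, 5′ to 3′ on the strand that reads CATGTG, with the core in capitals. *Dct* holds the core 150 bases before the start, which is shown, and again 232 bases before it on the other strand, which is not. Their places in GRCm38.p6 are chr7:87493518-87493543 (minus) for *Tyr*, chr4:80834157-80834182 (plus) for *Tyrp1*, chr14:118052381-118052406 (minus) for *Dct*, chr7:56239563-56239588 (minus) for *Oca2*, chr7:64153684-64153709 (plus) for *Trpm1*, chrX:102251970-102251995 (minus) for *Cited1* and chr5:51567870-51567895 (plus) for *Ppargc1a*.
Tyr: aaaagttagtCATGTGctttgcagaa
Tyrp1: gggagggagtCATGTGctgcctagta
Dct: cacttagggtCATGTGctaacaaaga
Oca2: aaattccagcCATGTGtagcaagctc
Trpm1: aaatcctcatCATGTGcccaccccaa
Cited1: cgagccaggaCATGTGctaataatgc
Ppargc1a: tgtacagtatCATGTGctttccaaca

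Genes that share this core differed in direction and size. *Tyr* had a log2 fold change of 1.08, *Tyrp1* of -0.23, *Dct* of -0.64, *Oca2* of -2.06, *Trpm1* of -1.39 and *Cited1* of -1.59. *Slc24a5*, a melanosomal exchanger whose core lies near the edge of the promoter window and is not shown, had -0.79. It overlaps *Myef2* on the opposite strand, which had up to 72.9 FPKM, so its value is uncertain too. *Ppargc1a*, a co-activator of mitochondrial genes, had 0.15 and did not pass (limma adjusted p = 0.0855). After median ratio scaling *Tyrp1* had -0.08 and no longer passed (limma adjusted p = 0.232), while *Ppargc1a* had 0.31 and did (limma adjusted p = 0.0042). *Ppargc1a* also passed after quantile normalization (0.28), with the replicate number as a block (0.15), and without Tyr-H library 3 or Tyr-L library 2 (0.20 each). *Tyrp1* and *Dct*, the enzymes that follow tyrosinase in melanin synthesis, stayed among the most abundant of the targets, at means of 3667.4 ± 101.2 and 3122.1 ± 138.3 FPKM for *Tyrp1* and of 1445.9 ± 23.8 and 930.4 ± 51.6 FPKM for *Dct* in Tyr-L and Tyr-H cells, respectively.

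Genes of the undifferentiated, mesenchymal-like melanoma state were higher in Tyr-H cells for 7 of the 11 tested, by the adjusted p. Of 21 on the list, 11 were tested, 2 were called higher and none lower, against 2.96% and 5.78% of all tested genes. By the adjusted p alone, 7 were higher, 2 were lower and 2 did not pass, against 17.9% higher and 39.9% lower over all tested genes. The median log2 fold change was 0.63 (0.78 after median ratio scaling). The 2 calls were of genes at low levels, and *Il6* passed the filter on low values only through Tyr-H cells, where it is high, so that its call and its place in these counts support nothing about the list. *Il6*, a cytokine, was at 0.0487 and 0.0892 FPKM for Tyr-L libraries 1 and 2, had no entry for Tyr-L library 3, and was at 0.195, 0.185 and 0.381 FPKM for Tyr-H cells (1.28, limma adjusted p = 0.0157). *Loxl2*, a collagen cross-linking enzyme, had 0.687, 0.269 and 0.332 FPKM against 0.833, 1.08 and 0.942 FPKM (1.06, adjusted p = 0.0105), and the antisense gene Gm27177 overlaps it at up to 0.305 FPKM. Calls were lost without Tyr-H library 3 for *Il6* (1.04) and without Tyr-L library 2 (0.84), Tyr-L library 3 (0.96) or Tyr-H library 2 (0.98) for *Loxl2*, and for both with a pseudocount of 1 FPKM (0.26 and 0.46). *Fn1*, fibronectin, was the gene most like *Ngfr* in the list, with means of 28.1 ± 1.04 and 52.2 ± 3.31 FPKM (0.89; 1.04 after median ratio scaling). *Cd44*, a hyaluronan receptor, was 1 of the 2 that were lower (-0.61).

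Genes of the neural crest state showed no common direction. Of 16 on the list 9 were tested, with 2 called lower and none higher, against 5.78% and 2.96% of all tested genes. By the adjusted p alone, 1 was higher and 4 were lower, against 17.9% and 39.9% of all tested genes, and the median was -0.05 (0.10 after median ratio scaling, so that its sign depends on the scaling). After that scaling *L1cam*, a neural adhesion protein (0.53, limma adjusted p = 0.0179), and *Nes*, the filament protein nestin (0.10, from -0.05, limma adjusted p = 0.0337), passed as higher too. Rescaling to a total of 1000000 FPKM instead made *Nes* pass as lower (-0.14, limma adjusted p = 0.0206). *Sox11*, a SOX factor of immature neurons, had means of 22.7 ± 1.22 and 10.3 ± 0.511 FPKM (-1.13; -0.98 after median ratio scaling), and *Aqp1*, a water channel, of 0.196 ± 0.0516 and 0.0423 ± 0.0283 FPKM (-1.06; -0.98), neither of which was a call after that scaling. *Aqp1* was also not called without Tyr-H library 2 (-0.93), Tyr-H library 3 (-1.04) or Tyr-L library 1 (-1.02), and its value was set by the pseudocount (-0.20 at 1 FPKM, -2.09 at 0.01 FPKM). It passed the filter on low values only through Tyr-L cells, so its call supports nothing about the list. Of 15 genes of epithelial-mesenchymal transition other than the ZEB pair, 5 were tested and limma called none. All 5 had an unadjusted p under 0.05, as did 8947 of the 14336 tested genes. Rescaling to a total of 1000000 FPKM, which let more genes past the filter, gave 1 call, of a gene outside these 5. As deposited, 1 of the 5 was higher and 3 were lower at the adjusted p alone, again against 17.9% and 39.9% of all tested genes. *Vim*, the filament protein vimentin, was no longer lower by that test after median ratio scaling (-0.10, limma adjusted p = 0.0903). The 1 that was higher, named after its values were seen, was *Snai2*, a zinc finger repressor of melanoblasts, with means of 2.41 ± 0.242 and 4.18 ± 0.538 FPKM (0.76, adjusted p = 0.000537).

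**Figure D4:**
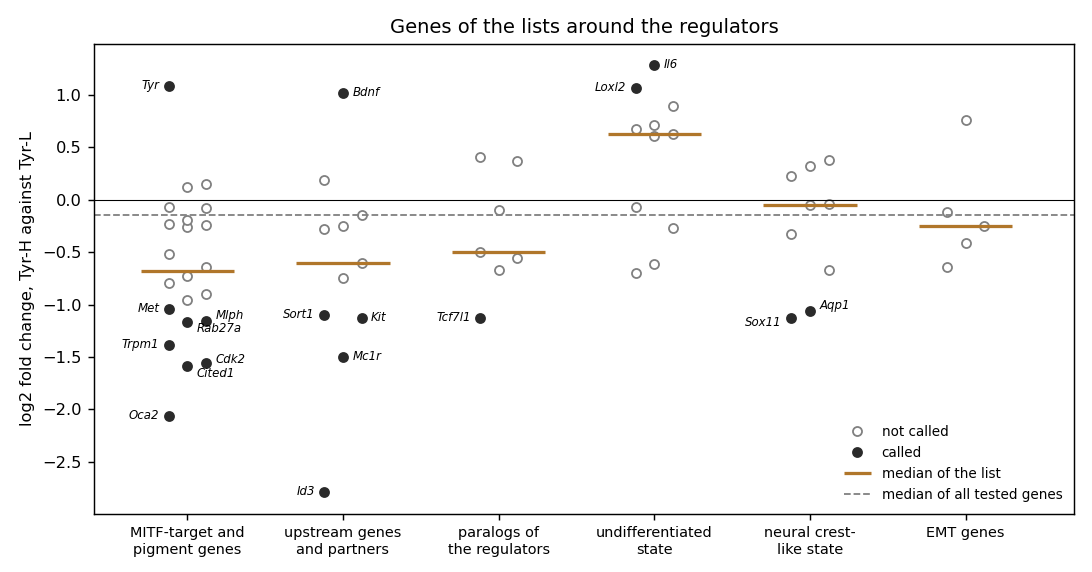
Log2 fold changes, Tyr-H against Tyr-L, of the tested genes of 6 lists, with 1 point per gene (filled where called), a line at each list's median and a dashed line at the median of all tested genes (-0.15). The targets of MITF lie around a median of -0.68 with *Tyr* apart at 1.08, and the genes of the undifferentiated state around 0.63.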

How the data were processed

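mRNA of 3 Tyr-L and 3 Tyr-H libraries was sequenced. The authors deposited 1 table of FPKM values per library; the submitters' processing notes name Trimmomatic, HISAT2 and GRCm38.p6, and the quantifier and strand setting are not given in the sources used here. Groups and replicate numbers came from the labels. Genes with no entry were set to 0. Log2(FPKM + 0.1) of genes whose mean reached 0.1 FPKM was compared with limma 3.58.1 in R 4.3.3 (variance trend, Benjamini-Hochberg over all 14336 genes). Calls needed an adjusted p no higher than 0.05 and a log2 fold change of 1 or more in size. The files hold no counts. Depth was estimated from low values of genes with 1 annotated transcript of at least 1500 nt. The median of FPKM times transcript length in kb was taken as 1 fragment. Only values within a fixed window were used, and that window bounds the estimate. The value of 3 fragments from it is rough and stands for counting error alone. Loci came from GENCODE M21 and promoters from RefSeq (GRCm38.p6). Python 3.11.15 with pandas 2.3.3, numpy 2.4.6, matplotlib 3.10.9 and scipy 1.17.1 was used, and the fit was tested on simulated data.

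The 10 genes and the lists were chosen with earlier results of these data known. Named are the 10 genes, their tested paralogs, up to 4 called genes per direction and list with the largest fold change, *Tyr*, the genes most like *Mitf* and *Ngfr*, overlapping genes, and the genes with the M-box core. Also named, after their values were seen, are *Mlph*, *Rab27a*, *Met*, *Mlana*, *Rab38*, *Rragd*, *Gpnmb*, *L1cam*, *Nes*, *Vim*, *Snai2*, *Creb1*, *Id1* and *Ednrb*, and marker genes of other cell types. Antisense or unnamed genes also overlap exons of *Tcf7l1*, *Sort1*, *Bdnf*, *Trpm1*, *Rab27a* and *Fn1*, whose values are uncertain to that extent, as are those of paralogs. Alternatives were other pseudocounts, filters, scalings, variance settings and thresholds, a replicate block and leaving out each library.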

Additional observations from a re-analysis of the deposited data

How the results depend on the processing

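Rescaling to a total of 1000000 FPKM gave 2 of the 10 genes as lower calls, with *Zeb2* added at -1.03, and leaving out each library gave 1 to 2, with *Zeb2* between -1.01 and -0.86. With no fold-change threshold 5 were lower. A filter at a mean of 1 FPKM removed *Ngfr* and left 1 higher call, as did a pseudocount of 1 FPKM, under which *Ngfr* had 0.98 and the mean log2 ratios differed by -2.85 (*Mitf* to *Axl*), -2.79 (*Mitf* to *Ngfr*), -0.31 (*Sox10* to *Sox9*) and -0.98 (*Zeb2* to *Zeb1*). No fold change of the 9 tested genes reversed under any alternative run, while *Lef1* had only its value with no filter. At the adjusted p alone *Pax3* and *Sox9* were lost under some alternatives and *Zeb1* gained under 1. Over all genes, higher and lower calls were 247 and 393 with the filter at 1 FPKM, 185 and 203 with a pseudocount of 1 FPKM, and 2570 and 5722 with no fold-change threshold. Lower calls were 494 after quantile normalization and 1287 after rescaling to the total, where 15719 genes were tested. Leaving out each library gave 385 to 451 higher and 741 to 849 lower calls.

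The labels give replicate numbers and do not say whether these pair the samples. Deviations from the group means of same-numbered libraries correlated at 0.02, 0.01 and -0.08, and not every library correlated best with its own number. Such low values over all tested genes cannot show that there is no pairing. With the replicate block 430 genes were called higher and 828 lower, and 2 and 1 of the 10 genes, as without it. With the block *Sox9* had a limma adjusted p of 0.0575. Among the genes of the lists, *Gpnmb* also no longer passed with the block, while *Id1*, *L1cam* and *Ppargc1a* did pass. Depth limits *Lef1*, which was close to or under the value of 3 fragments in the Tyr-H libraries and Tyr-L library 3. After quantile normalization the genes outside the 10 that lost their call were *Aqp1*, *Kit*, *Met*, *Sort1*, *Sox11* and *Tcf7l1*, among the genes of the lists.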
